A study of Mus musculus with 58 samples.

Results

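Fev cells of the mouse embryonic pancreas were compared with insulin cells of the same plates in 4 experiments of a single-cell RNA series. Fev cells were wells with at least 2 transcripts of Fev, no Neurog3 transcript and less than 1% of transcripts from each of the hormones insulin (Ins1 plus Ins2), Gcg, Sst, Ppy and Ghrl. Insulin cells had at least 1% insulin transcripts and at least 3 times as much insulin as any other hormone. Both groups needed at least 2000 transcripts and 500 genes per well. The rule gave 319 Fev cells and 395 insulin cells, together 714 of the 2328 retained wells of the 4 experiments and of 4318 in the whole series. Because Fev, Neurog3 and the hormones chose the cells, these 8 genes were left out of every fit, and values of them are descriptions without a test.

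The wells came from SORT-seq, in which single cells are sorted into 384-well plates, lysed and barcoded, and transcripts are counted by molecular identifiers. The embryos came from dams carrying MIP-GFP, green fluorescent protein under the mouse insulin promoter, and the genotype of the embryos is given no further. Each experiment held a plate of live cells, negative for a viability dye, and a plate of cells sorted for MIP-GFP, and both sorts were summed. EP12 was E13.5, EP14 was E14.5, and EP10 and EP17 were both E15.5, so in the main comparison, which used EP12, EP14 and EP10, stage and experiment cannot be told apart.

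During pancreas development, cells that have expressed Neurog3 pass through a stage that expresses the transcription factor Fev before they become hormone cells. The hormone cells include alpha cells, which make glucagon, and beta cells, which make insulin and use Pdx1 and Nkx6-1. A cell that makes much insulin sends a large flow of preproinsulin through the endoplasmic reticulum, where it is folded, and on through the Golgi into dense-core granules.

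The Fev cells numbered 137 in EP12, 101 in EP14, 73 in EP10 and 8 in EP17, and the insulin cells numbered 49, 65, 153 and 128. A sum needed at least 10 cells, so EP17, with 8 Fev cells, stayed out of the main comparison, which had 3 sums a group. The medians were 19602 transcripts and 5507 genes per Fev cell and 19244 transcripts and 5319 genes per insulin cell, and EP17 was the shallowest experiment, with medians of 8458 transcripts per Fev cell and 8567 per insulin cell. Fev cells carried 2 to 79 Fev transcripts (median 7) and a median of 0.0296% insulin transcripts. Insulin cells carried 1.02% to 20.6% insulin transcripts (median 4.05%), 226 of the 395 also had at least 2 Fev transcripts, and 58 had a Neurog3 transcript. Of the Fev cells, 48 sat exactly at 2 Fev transcripts, and 137 wells that met the other conditions had 1. A further 37 Fev cells had 0.5% to 1% insulin, and 42 insulin cells had 1% to 1.5%. Another 213 wells with Fev and no hormone at 1% were outside because they still held Neurog3.

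Not every well of the Fev gate carried many endocrine transcripts. In 36 of the 319 Fev cells (11.3%), 5 granule genes that endocrine cells share (Cpe, Pcsk1n, Scg3, Scg5 and Resp18) made up under 0.1% of transcripts, with a highest value of 0.0762% and a median of 0.00947%. The other 283 Fev cells began at 0.145% and had a median of 0.379%, close to the 0.418% of insulin cells, of which 2 of 395 were under 0.1%. The 36 wells comprised 8 in EP12, 22 in EP14 and 6 in EP10, 17 of 53 Fev cells of the live sort and 19 of 266 of the MIP-GFP sort, and 32 of them held 2 or 3 Fev transcripts. Among them, 19 had at least 0.5% of transcripts from immune markers, 7 from mesenchyme markers, 5 from acinar markers, 1 from erythroid markers and 1 from endothelial markers. None of the 283 other Fev cells reached 0.5% for any of these lists. Each result below is therefore given for all cells of the rule and, where it matters, with only the wells at or above 0.1%, a threshold chosen after the data had been seen, under which the 5 granule genes were left out of the fit.

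**Figure D1:**
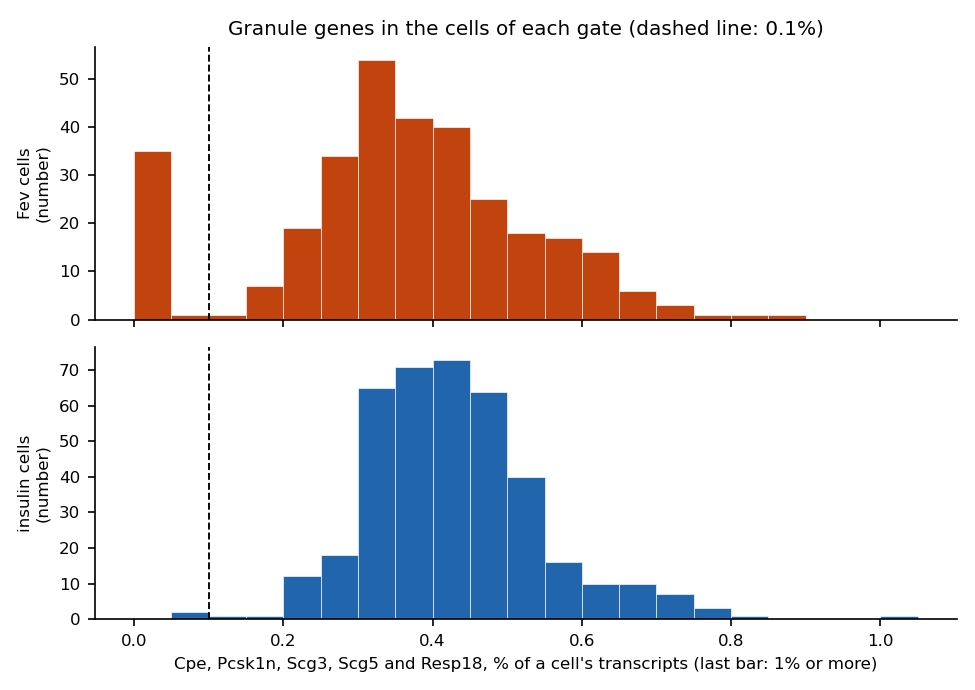
Number of Fev cells (top) and insulin cells (bottom) by the share of transcripts from Cpe, Pcsk1n, Scg3, Scg5 and Resp18, in bins of 0.05 percentage points, with the last bar holding cells at 1% or more. A separate peak of 35 Fev cells lies under 0.05%, while the 283 Fev cells above the dashed line at 0.1% overlap the insulin cells.

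Counts were summed per experiment and tested with edgeR's quasi-likelihood test with the experiment as a block and Benjamini-Hochberg adjustment, and values are given as CPM, transcripts of a sum scaled to a common library size. Log2 differences are Fev cells minus insulin cells, with ± for their standard error, and a gene is called higher or lower where it passed the test. Of 11404 genes tested, 3231 (28.33%) passed an adjusted p of 0.05: 1648 (14.45%) were higher and 1583 (13.88%) lower in Fev cells. With the granule threshold 2677 of 10685 genes passed (25.05%), 1166 higher (10.91%) and 1511 lower (14.14%), and 2081 genes were called both ways. In all cells, the Fev and insulin sums did not overlap for 3574 of the 11404 genes, nor for 2464 of the 3231 called. Lack of overlap is thus common among called genes. The labels do not say whether the cells of one experiment came from separate litters, so a p-value reflects how these 3 experiments, which were also of 3 stages, vary. They describe cells chosen by Fev and insulin, with which other genes may vary from cell to cell. The median log2 difference of all genes was 0.02, and 0.01 with the threshold. Without EP14, which held 22 of the 36 wells, 1637 of 10623 genes passed, and 1424 did so without the experiment as a block and 1406 by DESeq2.

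One large group of genes lower in Fev cells was that of beta-cell secretion and maturation. Of 29 tested members, 23 were lower, against 13.88% of all genes, and 0 higher, with a median log2 difference of −1.26, and with the threshold 21 were lower and 3 higher (Kcnj11, Cacna1a and Vdr). Npy (chromosome 6, 49822710 to 49829507 in GRCm38), which encodes neuropeptide Y, differed most. It had 67.8, 91.2 and 36.5 CPM in the Fev cells of EP12, EP14 and EP10, against 2022, 2404 and 2072 CPM in the insulin cells. The groups were far apart in every experiment, with a log2 difference of −5.05 ± 0.16 (adjusted p = 5e-08) and of −4.82 with the granule threshold. Nnat (chromosome 2, 157560078 to 157562522), an imprinted gene for neuronatin, a small protein of the endoplasmic reticulum membrane, had 1688, 1062 and 1528 CPM in Fev cells, against 12389.9, 10892 and 12423 CPM in insulin cells. All Fev sums lay below all insulin sums (log2 −3.09 ± 0.09, adjusted p = 3.22e-08). Slc2a2, the glucose transporter GLUT2, had 55.5, 35.3 and 51.4 CPM in Fev cells, against 229, 276 and 386 CPM in insulin cells, again without overlap (log2 −2.63 ± 0.16, adjusted p = 1.83e-06). Iapp, the amyloid peptide released with insulin, was already at 2604, 2770.2 and 3768 CPM in Fev cells, against 9515, 10578 and 13428 CPM in insulin cells. Its groups did not overlap, and the difference was −1.88 ± 0.05 (adjusted p = 3.22e-08) on the log2 scale.

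Among the rest of the list, the prolactin receptor Prlr (log2 −3.67), Tmem215 (−3.59), the purine receptor P2ry1 (−2.93), the granule-docking gene Sytl4 (−2.50) and the islet glucose-6-phosphatase G6pc2 (−2.32) were all lower in Fev cells. Ucn3, a peptide of mature beta cells, was low throughout, with 12.8, 10.7 and 13 CPM in Fev cells, against 31.1, 21.5 and 17.3 CPM in insulin cells. Its difference of −0.91 ± 0.25 (adjusted p = 0.0217) did not pass with the threshold (adjusted p = 0.0538). Of the subunits of the ATP-sensitive potassium channel, Kcnj11 gave 0.09 ± 0.10 (adjusted p = 0.559) in all cells and was higher with the granule threshold, at 0.34 ± 0.08 (adjusted p = 0.00162). Abcc8 was lower in all cells, at −0.34 ± 0.10 (adjusted p = 0.0255), but did not pass with the granule threshold (adjusted p = 0.598).

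Among genes of no list, the largest falls in Fev cells were those of Syndig1l (log2 −4.50), Prss53 (−4.03), C2cd4a (−3.98), Pitpnm3 (−3.73), the collagen chain Col6a3 (−3.70), Arhgap36 (−3.60), the ciliary neurotrophic factor receptor Cntfr (−3.23) and the cadherin Cdh22 (−3.11). Syndig1l, which encodes a membrane protein, had 5.98, 9.91 and 5.86 CPM in Fev cells, against 168, 181 and 153 CPM in insulin cells. Arhgap36 had 64.6, 40.4 and 61.2 CPM in Fev cells, against 654, 606 and 734 CPM in insulin cells. For all 8 genes the Fev sums lay below the insulin sums, which was likely for genes picked as the largest falls. Their differences with the threshold ran from −4.23 for Syndig1l to −2.98 for Cdh22.

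**Figure D2:**
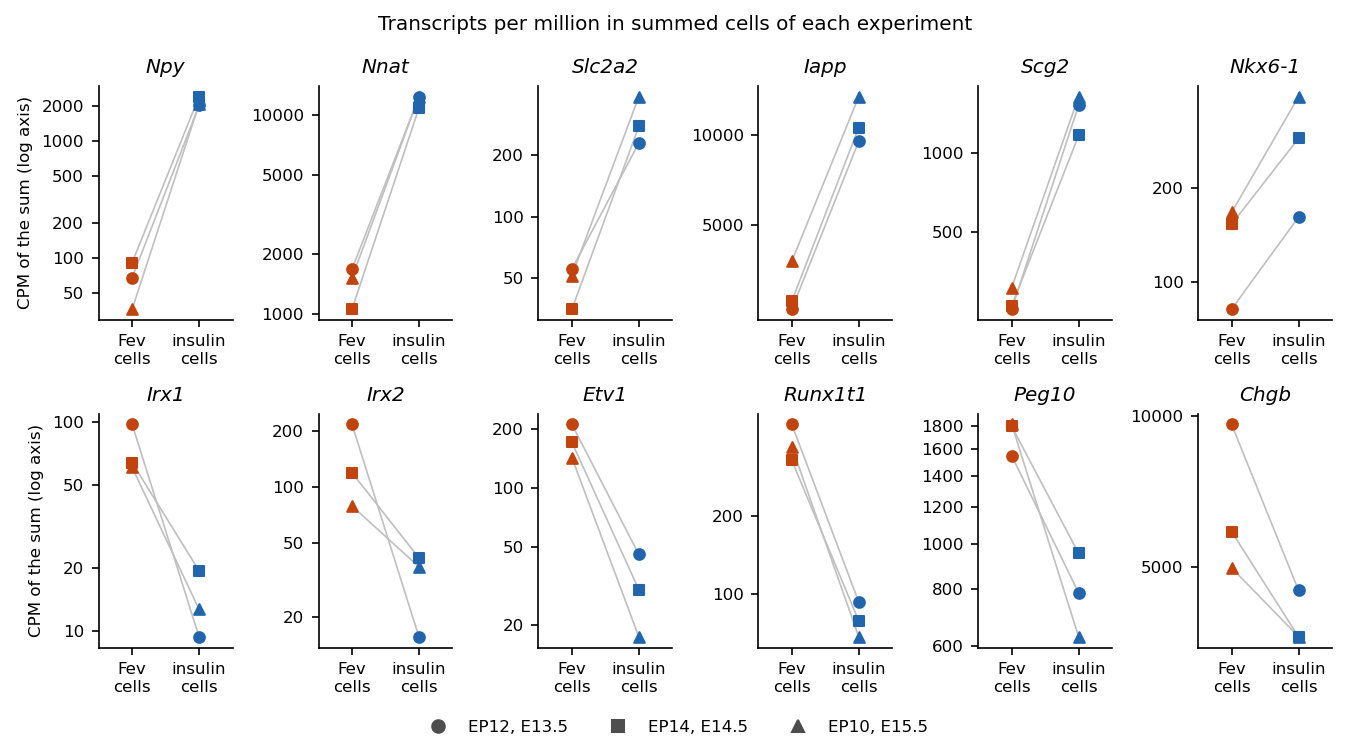
Level of 12 genes in CPM of the summed cells (log axis), Fev cells left and insulin cells right in each panel, with grey lines joining the 2 groups of an experiment and marker shapes for EP12 (E13.5), EP14 (E14.5) and EP10 (E15.5). Genes of the upper row are lower in Fev cells and genes of the lower row higher in every experiment, and the groups of Nkx6-1 overlap although each experiment shows the lower level in Fev cells.

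Genes that fold and check secreted proteins in the endoplasmic reticulum were lower in Fev cells almost throughout the list. Of 32 tested genes of the unfolded protein response and protein folding, 30 were lower, against 13.88% of all genes, and only Atf3 was higher (1.17 ± 0.33, adjusted p = 0.0233), a call that did not hold with the threshold (adjusted p = 0.261). The median log2 difference of the list was −1.35, and −1.30 with the threshold, under which 31 were lower and 0 higher. The summed level of the 33 members was 8301, 8903 and 9711 CPM in Fev cells of EP12, EP14 and EP10, against 21502, 21622 and 23477 CPM in insulin cells. Hspa5, the main chaperone of the compartment (BiP), had 1471, 1649 and 1736 CPM in Fev cells, against 3711, 3793 and 4290.4 CPM in insulin cells. The 2 groups did not overlap (log2 −1.28 ± 0.06, adjusted p = 3.39e-07). Derl3, which takes part in the disposal of misfolded proteins, had 11.6, 7.53 and 9.77 CPM in Fev cells, against 129.6, 149 and 143 CPM in insulin cells. It had the largest difference of the list, −3.87 ± 0.17 (adjusted p = 2.61e-07). Creld2, a stress-induced disulfide isomerase partner, had 132, 151 and 182 CPM in Fev cells, against 706, 661 and 690.0 CPM in insulin cells (log2 −2.16 ± 0.10, adjusted p = 3.39e-07). Ero1b, named Ero1lb in the table, is the oxidase that drives disulfide formation in islets and had 189, 189.9 and 243 CPM in Fev cells, against 771, 856 and 879.5 CPM in insulin cells (log2 −2.02 ± 0.08, adjusted p = 1.86e-07). For both genes all Fev sums lay below all insulin sums. Sdf2l1 (−2.51), Hyou1 (−1.98), the disulfide isomerase Pdia4 (−1.86), the Wolfram syndrome gene Wfs1 (−1.38) and the regulators Xbp1 (−0.53), Atf6 (−0.67) and Ddit3 (−1.31) were lower too. Atf4, the factor of the integrated stress response, was at 198, 288 and 249 CPM in Fev cells, against 223, 306 and 333 CPM in insulin cells, and its −0.23 did not pass (adjusted p = 0.0863).

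The promoters of 4 of these genes are shown because they carry the endoplasmic reticulum stress element (ERSE), letters that the stress factor ATF6 is known to bind together with NF-Y. Each is 300 bases of RefSeq on the plus strand of GRCm38.p6, 250 before to 50 after the transcription start, written 5′ to 3′ with the match to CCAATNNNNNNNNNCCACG or its reverse complement in capitals. Hspa5 is chr2:34771840-34772139, Derl3 is chr10:75893148-75893447, Creld2 is chr15:88819396-88819695 and Ero1b is chr13:12565633-12565932.
Hspa5: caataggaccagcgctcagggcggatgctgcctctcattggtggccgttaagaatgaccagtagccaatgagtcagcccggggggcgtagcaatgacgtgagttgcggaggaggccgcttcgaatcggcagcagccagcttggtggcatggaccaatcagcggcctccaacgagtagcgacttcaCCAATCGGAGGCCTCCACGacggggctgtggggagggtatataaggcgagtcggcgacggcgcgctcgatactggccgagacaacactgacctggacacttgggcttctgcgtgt
Derl3: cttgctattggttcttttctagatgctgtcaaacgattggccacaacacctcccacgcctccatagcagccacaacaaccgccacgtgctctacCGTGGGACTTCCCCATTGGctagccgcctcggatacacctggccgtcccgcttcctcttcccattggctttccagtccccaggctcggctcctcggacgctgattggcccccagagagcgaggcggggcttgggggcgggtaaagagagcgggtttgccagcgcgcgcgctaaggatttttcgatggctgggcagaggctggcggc
Creld2: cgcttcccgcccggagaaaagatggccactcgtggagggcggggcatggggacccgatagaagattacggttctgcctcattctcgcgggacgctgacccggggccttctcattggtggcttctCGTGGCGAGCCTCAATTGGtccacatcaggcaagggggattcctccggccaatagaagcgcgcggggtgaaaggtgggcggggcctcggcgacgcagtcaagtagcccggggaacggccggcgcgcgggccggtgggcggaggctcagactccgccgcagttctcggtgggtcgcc
Ero1b: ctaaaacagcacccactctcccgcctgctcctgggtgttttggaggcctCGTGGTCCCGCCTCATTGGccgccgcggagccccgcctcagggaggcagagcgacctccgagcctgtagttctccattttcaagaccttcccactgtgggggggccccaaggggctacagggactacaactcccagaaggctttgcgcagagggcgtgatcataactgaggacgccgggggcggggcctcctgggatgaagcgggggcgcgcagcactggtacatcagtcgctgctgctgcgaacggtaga
The match begins 65 bases before the start in Hspa5 and reads on the gene's strand. In Derl3, Creld2 and Ero1b it begins 156, 126 and 201 bases before the start and reads on the opposite strand. Both strands were also searched for ERSE-II, which is ATTGG, any 1 base and CCACG, and no promoter in the table held both motifs.

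One of the motifs was present in 12 of the 28 genes of the folding list that had a promoter in the RefSeq table (42.9%), ERSE in 10 and ERSE-II in 2 (Herpud1 and Dnajb11). The same letters occurred in 24 of 8598 tested genes with a promoter (0.279%) and in 51 of all 32851 promoters (0.155%), ERSE alone in 0.119% and ERSE-II in 0.0365%. The list was drawn from genes of this stress response, so its share of matches depends on that choice. All 12 genes (Calr, Canx, Creld2, Derl3, Dnajb11, Dnajc3, Ero1b, Herpud1, Hsp90b1, Hspa5, Pdia6 and Syvn1) were lower in Fev cells. So were 30 of the 32 tested genes of the list, with or without a match, and the direction does not set the 12 apart. Among all genes, 19 of 1192 lower genes (1.59%), these 12 included, and 1 of 1214 higher genes (0.0824%) held a match. The higher gene was Spats2l, which was not tested with the granule threshold. The other lower genes with a match were Krtcap2, Nucb1, Alg12, Hnrnpa3, Lgalsl, Lrif1 and Pan2. Krtcap2 is a subunit of the oligosaccharyltransferase, Nucb1 a calcium-binding protein of the Golgi and Alg12 a mannosyltransferase of the endoplasmic reticulum. Lrif1 did not pass with the granule threshold (adjusted p = 0.142). A match describes letters in this window and is neither a site nor a cause.

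**Figure D3:**
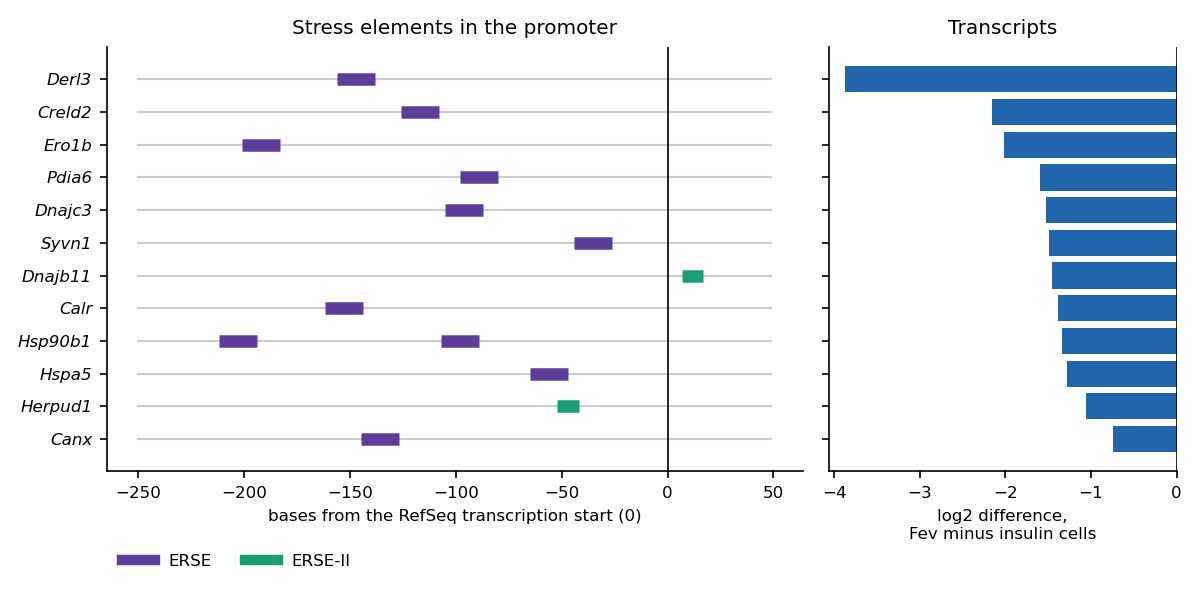
Left, position of ERSE (purple) and ERSE-II (green) matches in bases from the RefSeq transcription start in the promoters of 12 folding genes. Right, log2 difference of the same genes between Fev and insulin cells (bars from 0), all negative, from −3.87 for Derl3 to −0.74 for Canx.

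The machinery that carries new proteins across the membrane of the endoplasmic reticulum moved in the same direction. Of 31 genes, 28 were lower in Fev cells (90.3%, against 13.88% of all genes) and 0 higher, with a median of −0.90. With the threshold 29 were lower (93.5%, against 14.14%), with a median of −0.83. The members spanned all steps: the translocon subunit Sec61g had 479.5, 426 and 572 CPM in Fev cells, against 1119, 1023 and 1227 CPM in insulin cells. Its groups did not overlap (log2 −1.19 ± 0.07, adjusted p = 1.35e-06). Ssr3, a subunit of the translocon-associated protein complex, had 314, 311 and 307 CPM in Fev cells, against 687, 686 and 666 CPM in insulin cells (log2 −1.13 ± 0.07, adjusted p = 1.89e-06), again without overlap. The signal peptidase subunits Sec11c (−1.28) and Spcs3 (−1.17), the oligosaccharyltransferase subunits Rpn2 (−1.04) and Stt3a (−1.04), and the signal recognition particle receptor Srpr (−0.90) were lower as well. Sec62 (−0.10, adjusted p = 0.338), Srp14 (−0.15, adjusted p = 0.148) and Ost4 (−0.28, adjusted p = 0.0515) did not pass. Nuclear genes of mitochondrial respiration showed a smaller difference: 13 of 43 were lower (30.2%, against 13.88% of all genes) and 0 higher (median −0.18). Ndufa1, a subunit of complex I, had 219.8, 195 and 227 CPM in Fev cells, against 345, 362 and 437 CPM in insulin cells (log2 −0.84 ± 0.09, adjusted p = 6.27e-05). These groups did not overlap, nor did those of Uqcrq of complex III (−0.69) and Atp5g1 of the ATP synthase (−0.55).

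**Figure D4:**
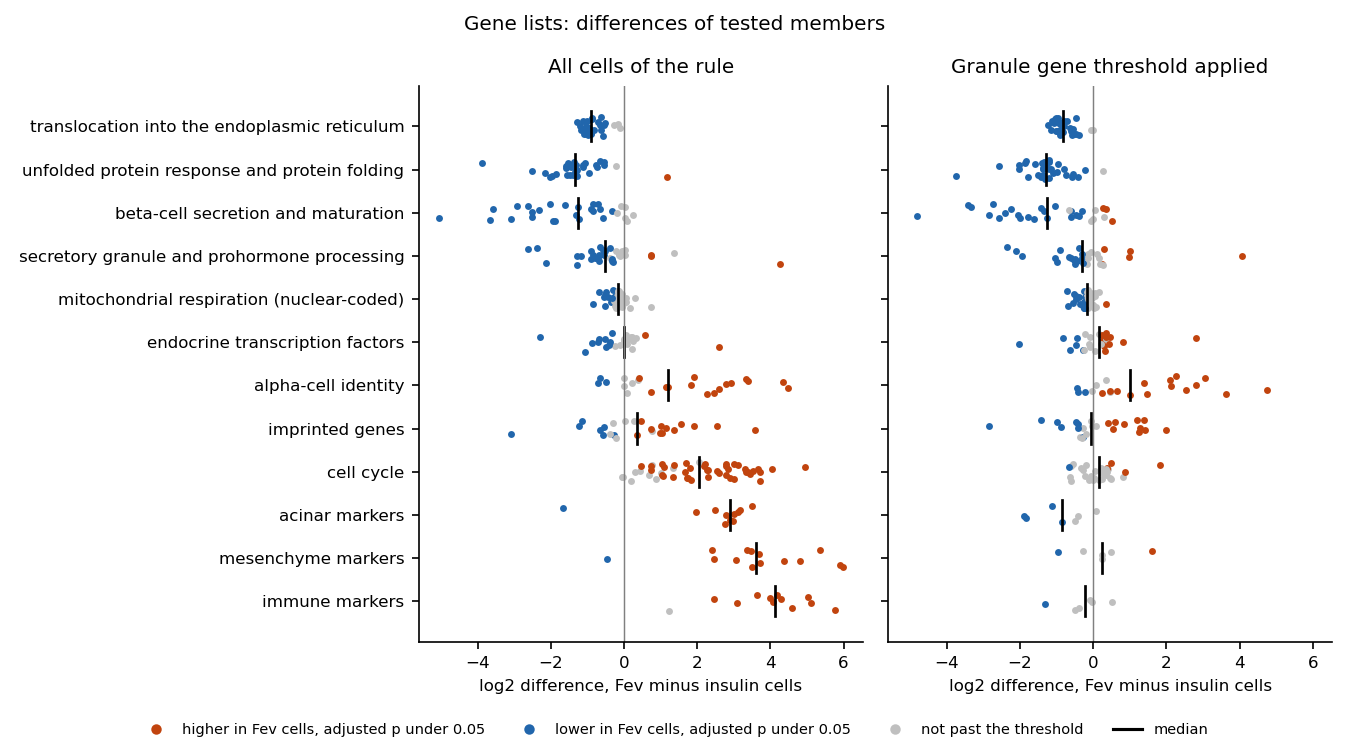
Log2 difference between Fev and insulin cells for each tested member of 12 gene lists (points), with list medians as black bars, for all cells of the rule (left) and with the granule gene threshold (right). Translocation and folding genes other than Atf3 lie below 0 in both panels, and the acinar, mesenchyme, immune and cell-cycle medians of 2.04 to 4.12 on the left become −0.86 to 0.24 on the right.

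Among endocrine transcription factors, Hopx, Nkx6-1 and Mlxipl were lower in Fev cells in both sets of wells. Of 25 tested endocrine factors, 10 were lower (40%, against 13.88% of all genes) and 2 higher (8%, against 14.45%) in Fev cells, with a median log2 difference of 0.00. With the threshold 6 were lower (24%, against 14.14%) and 10 higher (40%, against 10.91%), with a median of 0.16. The split of calls thus turned round with the threshold. Nkx6-1, which beta cells need, had 81.8, 153 and 167 CPM in the Fev cells of EP12, EP14 and EP10, against 162, 289.8 and 395 CPM in the insulin cells. The lowest insulin sum, in EP12, lay just within the range of the Fev sums, but Fev cells were lower in each experiment (log2 −1.05 ± 0.09, adjusted p = 2.7e-05, and −0.81 with the threshold). Hopx, a homeodomain cofactor, had 19.1, 34.5 and 43 CPM in Fev cells, against 139, 154 and 176 CPM in insulin cells (log2 −2.30 ± 0.15, adjusted p = 3.12e-06). Its groups did not overlap, nor did those of Mlxipl (−0.88), the carbohydrate-response factor ChREBP. Pdx1 had 25.9, 28.5 and 48.8 CPM in Fev cells, against 39.4, 44.1 and 62.4 CPM in insulin cells. The ranges overlapped, and its −0.51 ± 0.14 (adjusted p = 0.0241) became −0.26 ± 0.15 (adjusted p = 0.216) with the threshold. Pax6, needed by all islet types, was at 1037, 931 and 1000.2 CPM in Fev cells, against 1099, 944 and 1144 CPM in insulin cells, a difference of −0.10 ± 0.07 (adjusted p = 0.295). Isl1, Neurod1 and Rfx6, 3 factors of the whole endocrine lineage, gave 0.19, 0.07 and 0.01, none of which passed in all cells, and 0.44, 0.32 and 0.25, all 3 higher, among wells at or above 0.1% (adjusted p of 9.79e-06, 0.00175 and 0.015). For Neurod1 this rested on EP12 and EP14, since EP10 had 1138 CPM in Fev cells, against 1149.9 CPM in insulin cells, and the groups overlapped. Insm1 and Nkx2-2 were lower in all cells (−0.37 and −0.33) but not with the threshold (adjusted p of 0.205 and 0.376).

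Genes linked to alpha cells were mostly higher in Fev cells. The rule may set part of this direction, since insulin cells needed at least 3 times as much insulin as Gcg. Fev cells could hold Gcg up to 1%, whatever their insulin share below 1%. The part of the rule in these differences was not tested. Of 23 tested members, 15 were higher, against 14.45% of all genes, and 3 lower, with a median of 1.20. With the threshold 14 of 21 were higher and 3 lower, with a median of 1.00. Irx2, an Iroquois factor of alpha cells, had 217, 119 and 78.8 CPM in the Fev cells of EP12, EP14 and EP10, against 15.6, 41.4 and 37 CPM in the insulin cells. The groups did not overlap (log2 1.84 ± 0.31, adjusted p = 0.00162, and 2.09 with the threshold). Its relative Irx1 had 97.3, 63.8 and 60.6 CPM in Fev cells, against 9.33, 19.4 and 12.7 CPM in insulin cells, again without overlap (log2 2.28 ± 0.23, adjusted p = 5.35e-05). Etv1, an ETS factor, had 211, 171 and 143 CPM in Fev cells, against 45.6, 30.1 and 17.3 CPM in insulin cells (log2 2.60 ± 0.15, adjusted p = 1.52e-06). Peg10, a paternally expressed gene derived from a retrotransposon, had 1549.5, 1793 and 1812 CPM in Fev cells, against 783, 953 and 629 CPM in insulin cells. Both genes were higher in each experiment, Peg10 by 1.14 ± 0.11 (adjusted p = 3.41e-05). The chromatin remodeller Smarca1 (1.92) and the POU factor Pou3f4 (4.47), which acts before glucagon appears, were also higher. Ttr, the transthyretin gene, expressed in alpha cells, was abundant in both groups, at 2857, 2273 and 2697 CPM in Fev cells, against 2846, 2466 and 2493 CPM in insulin cells (log2 0.00 ± 0.06, adjusted p = 0.996). It was higher with the granule threshold, at 0.23 ± 0.05 (adjusted p = 0.000715). Gc, the vitamin D-binding protein, was at 2.94 in all cells and did not pass with the threshold (0.45, adjusted p = 0.647), and Fap and Ldb2, which passed in all cells, were not tested there.

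Genes of the other islet types included the largest increase named with the granule threshold. Hhex (chromosome 19, 37434810 to 37440731), the factor of delta cells, had 17.2, 52.3 and 69 CPM in Fev cells, against 0, 3.76 and 0.309 CPM in insulin cells. Insulin cells of EP12 held no Hhex transcript, and the difference of 5.27 ± 0.47 (adjusted p = 2.56e-05) was 5.31 ± 0.41 (adjusted p = 3.82e-10) with the threshold. The Fev cells themselves were uneven, lowest in EP12 and highest in EP10. Mboat4, the enzyme that acylates ghrelin in epsilon cells, had 22.3, 40.04 and 43 CPM in Fev cells, against 6.22, 4.84 and 2.78 CPM in insulin cells (log2 3.16 ± 0.33, adjusted p = 7.69e-05). Pyy, peptide YY, was abundant in both groups, at 1831, 1991 and 2638 CPM in Fev cells, against 1216, 1422 and 1704 CPM in insulin cells, and higher in Fev cells without overlap (log2 0.57 ± 0.06, adjusted p = 8.25e-05). Of the 12 tested genes of delta, PP and epsilon cells, 6 were higher (50%, against 14.45% of all genes) and 1 lower (8.33%, against 13.88%), the Wnt antagonist Frzb (−1.86). With the threshold 5 of 11 were higher (45.5%, against 10.91%).

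In all cells, the 12 largest increases named by the selection rule were Ptn, Fcrls, Clec4n, Lyz1, Ednrb, Arhgdib, Hhex, Maf, Tyrobp, Fcgrt, Hmox1 and Mpeg1, most of them macrophage genes. Fcrls, a microglia and macrophage receptor, had 40.7, 153 and 0.651 CPM in Fev cells, against 0, 1.61 and 0 CPM in insulin cells, so EP10 did not share the high values of EP12 and EP14. Ptn was at 1.99, 25 and 39.7 CPM in Fev cells and at 0 in all insulin sums. Of the 12, only Hhex remained among the 12 largest increases with the threshold, which included Hhex, Ppp1r14c, Gyk, Gria2, Vim, Pola1, Mboat4, Serpinf2, Tspan12, Dll3 and Mctp2. Gria2, a glutamate receptor subunit, had 49.3, 71.2 and 53.1 CPM in Fev cells at or above 0.1%, against 2.08, 4.32 and 4.32 CPM in insulin cells (log2 3.87 ± 0.23, adjusted p = 3.42e-12). Vim, the intermediate filament vimentin, had 229.9, 154 and 64.9 CPM in these Fev cells, against 9.36, 14 and 6.79 CPM in insulin cells (log2 3.67 ± 0.18, adjusted p = 4.93e-14). Both were separate in all 3 experiments, and Vim was also higher in all cells (4.35). The 12 largest decreases with the threshold were Npy, Syndig1l, Col6a3, Prss53, Derl3, C2cd4a, Cntfr, Pitpnm3, Arhgap36, Tmem215, Fkbp11 and Cdh22, of which Fkbp11, a prolyl isomerase of the secretory pathway, alone was not among the 12 of all cells.

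Granule genes were mostly lower in Fev cells, with a few higher. Of 35 tested genes for granules and prohormone processing, 22 were lower in Fev cells (62.9%, against 13.88% of all genes) and 3 higher (8.57%, against 14.45%), with a median of −0.51. With the threshold and without its 5 genes, 16 of 29 were lower (55.2%, against 14.14%) and 5 higher (17.2%, against 10.91%). Chgb, chromogranin B, had 9631, 5880.2 and 4976 CPM in Fev cells, against 4488, 3622 and 3627 CPM in insulin cells. Fev cells were higher in all 3 experiments (log2 0.75 ± 0.10, adjusted p = 0.000316). Its relative Chga had 1564, 1215 and 1662 CPM in Fev cells, against 1943, 1934 and 2582 CPM in insulin cells, and was lower (−0.54 ± 0.08, adjusted p = 0.000512). Scg2, secretogranin II, had 256, 263 and 309 CPM in Fev cells, against 1514, 1163 and 1631 CPM in insulin cells, with Fev sums all far below insulin sums (log2 −2.37 ± 0.09, adjusted p = 1.19e-07). The prohormone convertases Pcsk1 (−0.69) and Pcsk2 (−0.74) were lower and the amidating enzyme Pam (0.73) higher. Slc18a2 and Slc18a1, the 2 vesicular monoamine transporters, differed in opposite directions. Slc18a2 had 12.8, 7.14 and 5.86 CPM in Fev cells, against 0, 0.538 and 0.309 CPM in insulin cells (adjusted p = 0.0012). Slc18a1 had 21.1, 11.9 and 13 CPM in Fev cells, against 36.3, 39.3 and 34.3 CPM in insulin cells (log2 −1.29 ± 0.22, adjusted p = 0.00144). Neither pair of groups overlapped, and Slc18a2 rested on few transcripts. In the serotonin list, the decarboxylase Ddc (1.01) was higher and the monoamine oxidase Maob (−1.55) lower. Of its 9 tested members, 4 were higher (44.4%, against 14.45% of all genes) and 2 lower (22.2%, against 13.88%). Tph1 and Tph2, the enzymes that begin serotonin synthesis, were below the filter.

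Peptide genes differed in both directions, 5 higher and 5 lower of 13 tested (38.5% each, against 14.45% and 13.88% of all genes). Gast, the gastrin gene, had 119, 233 and 67.1 CPM in Fev cells, against 70.5, 14.52 and 17 CPM in insulin cells. Insulin cells of EP12 overlapped the Fev range, and the difference was 2.19 ± 0.41 (adjusted p = 0.00294). Cck, the gene of cholecystokinin, had 298, 147 and 84 CPM in Fev cells, against 141, 83.9 and 46.3 CPM in insulin cells, and both groups were highest in EP12 (log2 0.92 ± 0.10, adjusted p = 0.000109). Tac1, the substance P precursor, was at 23.1, 8.33 and 3.26 CPM in Fev cells, against 0, 1.61 and 0.309 CPM in insulin cells, and was higher (adjusted p = 0.00312), as was the secretin gene Sct (log2 0.55). Gip, the incretin of gut K cells, had 201, 31.7 and 38.4 CPM in Fev cells, against 409, 366 and 133 CPM in insulin cells, and galanin, Gal, was lower as well (−2.48). The Gip ranges overlapped, since Fev cells of EP12 exceeded insulin cells of EP10, although Fev cells were lower in each experiment (log2 −2.0 ± 0.35, adjusted p = 0.00175).

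Genes of the endocrine commitment stage went in both directions. Of 27 tested, 8 were higher in Fev cells, against 14.45% of all genes, 8 lower, against 13.88%, and 11 did not pass, with a median of 0.04. With the threshold 10 of 27 were higher and 7 lower, against 10.91% and 14.14% of all genes. Runx1t1, a corepressor, had 449, 327 and 369 CPM in Fev cells, against 93.3, 79 and 68.5 CPM in insulin cells. The groups were separate in every experiment (log2 2.25 ± 0.10, adjusted p = 3.1e-07). Pax4, a factor that favours the beta over the alpha fate, had 106, 68.6 and 52.7 CPM in Fev cells, against 44.6, 48.4 and 20.7 CPM in insulin cells (log2 0.99 ± 0.17, adjusted p = 0.0019). The cell-cycle inhibitor Cdkn1a was also higher (1.75), as was the zinc-finger factor St18 (0.56). Btbd17 (−1.16), Tssc4 (−1.20), Gadd45a (−1.11) and Mfng (−0.80), a glycosyltransferase acting on Notch, were lower. In the Notch list 4 of 17 tested were higher (23.5%) and 3 lower (17.6%), against 14.45% and 13.88% of all genes, and with the threshold 2 of 16 were higher and 4 lower. The highest was the ligand Dll3 (2.85), and the target Hes1 (1.80) turned to −0.84 with the threshold (adjusted p = 0.149).

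Imprinted genes were on both sides, 12 of 25 tested higher (48%, against 14.45% of all genes) and 7 lower (28%, against 13.88%). Nnat and Dlk1 (−1.24) were lower, and the maternally expressed Meg3 (−0.65) and Rian (−0.57) were lower by less. Peg10 and its neighbour Sgce were higher, Sgce with 84.6, 69 and 72.3 CPM in Fev cells, against 28, 23.1 and 13 CPM in insulin cells (log2 1.90 ± 0.19, adjusted p = 5.35e-05). H19 and the fetal growth factor Igf2 were higher in all cells (2.55 and 1.56) but did not pass with the threshold, at −0.36 (adjusted p = 0.183) and −0.04 (adjusted p = 0.882). Mest was higher in both sets, at 3.59 and 1.26, but with the threshold EP10 went the other way, with 11.7 CPM in Fev cells, against 21.3 CPM in insulin cells, and the groups overlapped.

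Cell-cycle genes and markers of other cell types were mostly higher in all Fev cells and mostly not called with the granule threshold. For the counts that follow, the shares of all genes were 14.45% higher and 13.88% lower in all cells. With the threshold they were 10.91% higher and 14.14% lower. Of 51 tested cell-cycle genes 40 were higher in all cells (median 2.04), and 4 of 29 with the threshold (median 0.16), the 4 being the chromatin protein Hmgb2, the replication gene Mcm6 and the inhibitors Cdkn1a and Cdkn1b. Mki67, a proliferation marker, had 45.5, 95.9 and 36.5 CPM in Fev cells, against 3.11, 2.69 and 5.56 CPM in insulin cells, and was not tested with the threshold. Immune markers were higher for 11 of 12 members and for 0 of 6 with the threshold, and their summed level was 843, 1812 and 24.7 CPM in all Fev cells of EP12, EP14 and EP10, against 56.0, 89.8 and 27.5 CPM in insulin cells. With the threshold that sum was 54.2, 72.3 and 19.5 CPM in Fev cells, against 56.2, 90.1 and 27.5 CPM in insulin cells. Mesenchyme markers were higher for 13 of 14 and then 1 of 6, acinar markers for 10 of 11 and then 0 of 7, and duct and trunk markers for 8 of 13 and then 3 of 13. Acinar genes were lower for 4 of 7 with the threshold, and their summed level was then 136, 133 and 111 CPM in Fev cells, against 124, 164 and 527 CPM in insulin cells. The high value of the insulin cells of EP10 came largely from 1 well, which held 968 of their 1706 acinar transcripts (56.7%). Among other markers, 1 of 3 erythroid, 3 of 6 hepatocyte, 1 of 1 endothelial and 1 of 5 neural crest genes were higher in all cells, and 0 of 2, 2 of 5, 0 of 1 and 1 of 4 with the threshold. Of genes for cell adhesion and the cytoskeleton, 11 of 26 were higher and 6 lower, and 9 of 25 were higher and 6 lower with the threshold. Of immediate early and heat-shock genes, which respond to cell handling, 10 of 24 were higher and 0 lower, and 7 were higher and 2 lower with the threshold. Their part in the other results was not tested.

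Within each group the cells also varied with their insulin share, which is given as a description because that share chose the groups. Wells at or above the granule threshold of EP12, EP14 and EP10 were summed in 4 classes: Fev cells under 0.1% insulin, Fev cells with 0.1% to 1%, insulin cells with 1% to 3%, and insulin cells with 3% to 10%. Of 131 named genes, the mean over the 3 experiments increased over all 4 classes for 42 and decreased for 38. Many of the 131 were named for a difference between Fev and insulin cells, which the classes subdivide, so ordered means were likely. Fev itself averaged 778 ± 233, 355 ± 90.9, 187 ± 23.5 and 136 ± 38.8 CPM (SD, n = 3) in that order. Nnat averaged 969 ± 204, 2910.1 ± 457, 8409 ± 919 and 15909 ± 4233 CPM, and Npy 38.7 ± 9.76, 153 ± 107, 1134 ± 782 and 3242 ± 275 CPM. Npy thus stayed low in Fev cells with some insulin, where Iapp already averaged much of its later level, with 2318 ± 793, 6045 ± 648, 9324 ± 965 and 12511 ± 2206 CPM over the 4 classes. Hspa5 averaged 1389 ± 151, 2219.9 ± 429, 3343 ± 81.4 and 4320.0 ± 430.0 CPM and Sdf2l1, a partner of Hspa5, 21.5 ± 2.52, 59.8 ± 22, 150.1 ± 12.6 and 268 ± 33.8 CPM. Both chaperone genes thus increased within Fev cells and again within insulin cells. Irx1 averaged 111 ± 15.8, 38.8 ± 19.9, 16.7 ± 9.79 and 10.1 ± 2.55 CPM, Runx1t1 565 ± 92.5, 162 ± 52.7, 95.4 ± 11.7 and 53.1 ± 2.66 CPM and Peg10 2369 ± 492, 1344 ± 102, 1027 ± 274 and 392 ± 85.1 CPM. Runx1t1 had most of its decrease between the 2 classes of Fev cells, and Peg10 decreased at each step of the mean. Hhex averaged 70.00 ± 59.7, 1.02 ± 0.926, 1.15 ± 1.38 and 1.7 ± 2.94 CPM, so in these 3 experiments its transcripts lay almost wholly in Fev cells with little insulin. In EP17, whose Hhex level in Fev cells is given below, 7 Fev cells had 0.1% to 1% insulin and 1 had less. Insulin cells of EP17 with 1% to 3% insulin had 20.8 CPM of Hhex. Pdx1 averaged 30.03 ± 11, 57.3 ± 16.2, 50.1 ± 17.1 and 46.6 ± 11.6 CPM and had no steady direction.

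**Figure D5:**
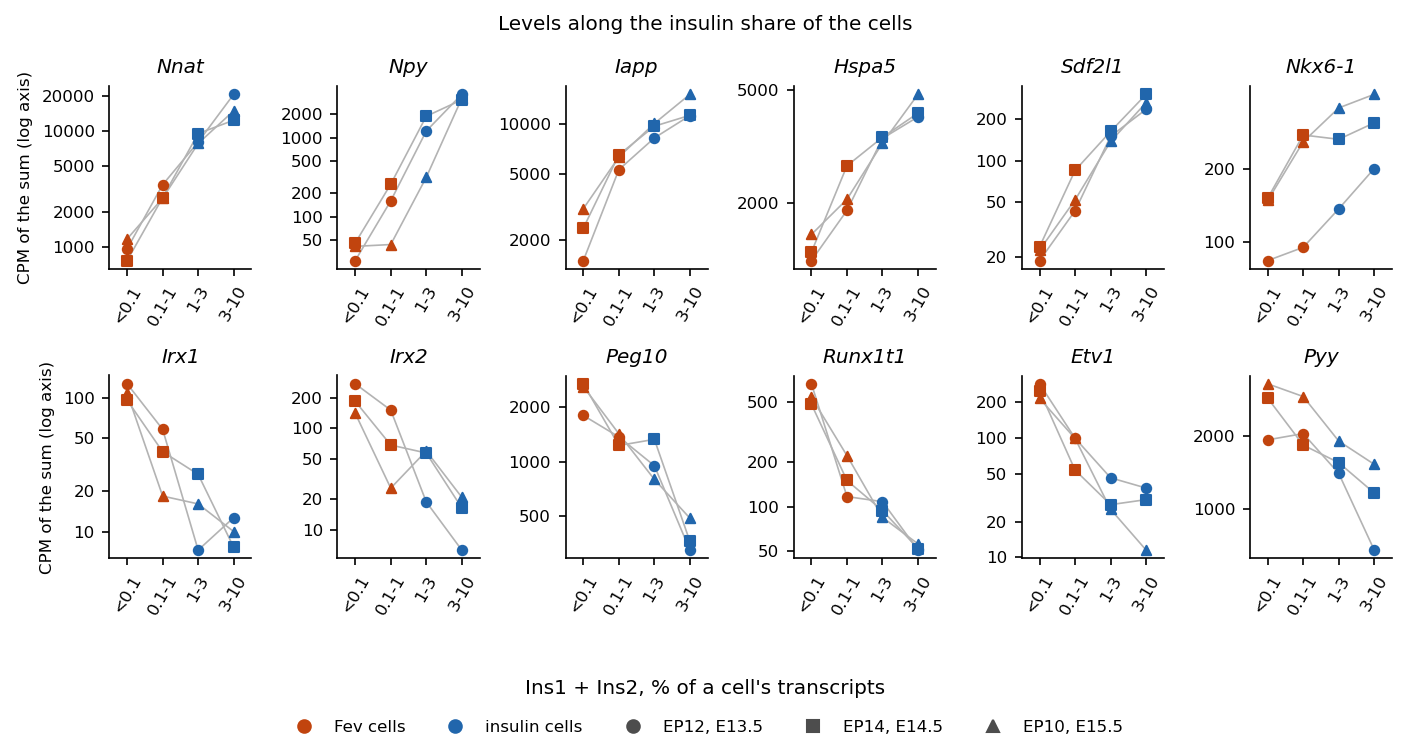
Level of 12 genes (CPM of the summed cells, log axis) in 4 classes of cells ordered by the insulin share of their transcripts in percent, Fev cells in orange and insulin cells in blue, with lines joining the classes of EP12, EP14 and EP10. Genes of the upper row increase along the classes in the mean of the experiments and genes of the lower row decrease, with single steps against the direction such as that of Irx2 in EP10.

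Some Fev cells held transcripts of alpha and beta factors together, and others held only the alpha or only the beta factor. Of the 283 Fev cells at or above the granule threshold, 81 had transcripts of both the alpha factor Irx2 and the beta factor Nkx6-1, 57 of Irx2 alone, 117 of Nkx6-1 alone and 28 of neither. Irx2 and the beta factor Pdx1 were found together in 32 of these cells, with 106 cells holding Irx2 alone, 80 Pdx1 alone and 65 neither. Nkx6-1 was found in 58.7% of the 138 cells with Irx2 and in 80.7% of the 145 cells without it, and Pdx1 in 23.2% and 55.2%. In EP12, EP14 and EP10 alike, the share was lower in the cells with Irx2 for both genes, and the difference was not tested. These counts depend on depth, and a gene with few transcripts is missed in many cells that express it, so they are not compared with those of insulin cells.

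A further question was whether insulin cells that still carried Fev differed from those that did not. Insulin cells with at least 2 Fev transcripts were set against insulin cells with none, which left EP10 (97 and 29 cells) and EP17 (39 and 55 cells). Of 7277 genes, 18 (0.2474%) passed, 6 higher (0.08245%) and 12 lower (0.1649%) in the cells with Fev, and 401 had an unadjusted p under 0.05. Peg10 had 680.4 and 582 CPM in insulin cells with Fev of EP10 and EP17, against 144 and 235 CPM in those without. It had the smallest p, with a log2 difference of 1.82 ± 0.14 (adjusted p = 1.13e-33) by edgeR's quasi-likelihood test. Peg10 was higher in both experiments. With 2 sums a group and the experiment as a block, the ± and p-values of this comparison say little about how the experiments vary. The log2 differences in EP10 and EP17 lay far apart for Pyy (0.41 and 1.24) and Npy (−0.44 and −1.13). They were closer for Scg2 (−0.52 and −0.73). Pyy had 1744 and 4726 CPM in insulin cells with Fev of EP10 and EP17, against 1315 and 2005 CPM in those without (log2 0.82 ± 0.10, adjusted p = 1.38e-11). It was higher in each experiment, although its values overlapped between experiments. Npy had 1620.2 and 1589.8 CPM in insulin cells with Fev of EP10 and EP17, against 2203 and 3482 CPM in those without, and Scg2 had 1349 and 1193 CPM in insulin cells with Fev of EP10 and EP17, against 1940.4 and 1979.9 CPM in those without. Both were lower in the cells with Fev without overlap, at log2 −0.76 ± 0.10 (adjusted p = 3.08e-10) for Npy and −0.62 ± 0.10 (adjusted p = 4.72e-06) for Scg2. The other lower genes were Syndig1l (−0.79), Dlk1 (−0.46), Arhgap36 (−0.64), Cntfr (−1.12), Gadd45a (−0.82), Gem (−0.74), Xlr3a (−1.30), Apoe (−1.64), Msln (−2.10) and Dgkg (−2.44), and other higher ones included Fbxo9 (1.32), Hspa8 (0.41) and Pnliprp1. Pnliprp1, an acinar lipase, had 168 and 0 CPM in insulin cells with Fev of EP10 and EP17, against 12.8 and 46 CPM in those without, so its 2 experiments went opposite ways. The log2 difference of Xlr3a was −1.72 in EP10 and −0.017 in EP17, so its call rested on EP10.

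The insulin cells with Fev also differed in depth and in insulin share. In EP10 they had medians of 24718 transcripts and 3.07% insulin, against 19591 transcripts and 5.53% in those without, and in EP17 9253 transcripts and 5.08%, against 7090 transcripts and 9.86%. Without the 2 insulin cells of EP17 under the granule threshold, 5 genes passed, among them Peg10 and Pyy, which were higher, and Npy and Scg2, which were lower, and with cells thinned to 2000 transcripts 0 of 2022 genes did. Without the experiment as a block 0 genes passed in edgeR, and 1, Peg10, passed in DESeq2. When the second group was widened to insulin cells with fewer than 2 Fev transcripts, a choice made after seeing the data, all 4 experiments could be used and 20 of 9163 genes passed (0.2183%), 10 of them shared with the 18. Iapp had 8454, 9999, 12126 and 16826 CPM in insulin cells with Fev of EP12, EP14, EP10 and EP17, against 11022, 10629.6, 14221 and 25802 CPM in those with fewer than 2 Fev transcripts (log2 −0.33 ± 0.06, adjusted p = 0.00371). Iapp was lower in the cells with Fev in each experiment. By the same edgeR test Peg10 was higher (0.94 ± 0.11, adjusted p = 1.08e-06) and Npy lower (−0.65 ± 0.11, adjusted p = 0.000818). In EP12, Peg10 differed by only 0.20, and Npy went the other way (0.32). Scg2 did not pass (−0.33 ± 0.09, adjusted p = 0.133), with 0.23 in EP12. Gadd45a, Xlr3a, Apoe, Msln, Dgkg, Fbxo9 and Hspa8 did not pass either. Gadd45a, Xlr3a and Msln were higher in the cells with Fev in EP12 and EP14. Irx2 was higher (1.84 ± 0.34, adjusted p = 0.00371), while Hspa5 did not pass (−0.10 ± 0.06, adjusted p = 0.824). In EP17, however, Irx2 hardly differed, with 16.4 CPM in insulin cells with Fev, against 15.7 CPM in the others. Of the 18 genes, 15 were also called with the same sign between Fev and insulin cells, but the comparisons share the insulin cells with Fev, so this is no separate evidence.

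The other hormones of the gate were low in both groups, which the rule itself sets. Gcg, the glucagon gene, had 1128, 1376, 717 and 1729 CPM in the Fev cells of EP12, EP14, EP10 and EP17, against 655, 1158, 499 and 1151 CPM in the insulin cells. It was found in 127 of 137 Fev cells of EP12, against 47 of its 49 insulin cells, so most cells of either group held some. Ghrl, the ghrelin gene, had 42.6, 124, 64.8 and 32.2 CPM in Fev cells, against 3.92, 8.82, 14 and 15.48 CPM in insulin cells, and the pancreatic polypeptide gene Ppy 69.6, 39.5, 238 and 1497 CPM in Fev cells, against 33.5, 13.47, 50.9 and 159 CPM in insulin cells. The somatostatin gene Sst had 19.8, 27.3, 72.3 and 566 CPM in Fev cells, against 13.8, 35.2, 85.6 and 114 CPM in insulin cells. For Gcg, Ghrl and Ppy the Fev value exceeded the insulin value in every experiment, and for Sst in EP12 and EP17 but not in EP14 and EP10.

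EP17 stood outside the main comparison. Its 8 Fev cells held 62232 transcripts in all, and are described without a test. Of 2675 genes called with the granule threshold, 2036 had the same sign in EP17 (76.1%), 1330 of the 1511 lower genes and 706 of the 1164 higher ones. Among those that differed by at least 2-fold and had at least 50 transcripts in both groups of EP17 together, 169 of 171 lower and 24 of 26 higher genes had the same sign. All 12 of the largest decreases and 7 of the 12 largest increases did. Of the 131 named genes, 75 had in EP17 the sign of their difference in all cells of the rule. Npy had 122 CPM in the Fev cells of EP17, against 3369 CPM in its insulin cells, and Hspa5 1328 CPM in Fev cells, against 3806 CPM in insulin cells. Peg10 had 1434 CPM in Fev cells, against 376 CPM in insulin cells, and Hhex 259 CPM in Fev cells, against 3.94 CPM in insulin cells. All 4 lay on the same side as in the other experiments.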

How the data were processed

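Expression was measured by SORT-seq, a single-cell RNA-seq method, in pancreatic cells of mouse embryos. The authors deposited a table of expected counts, transcript numbers estimated from molecular identifiers per well, which were rounded to whole numbers here after summing. Per the submitters' processing notes, BWA, Seurat and the build mm10 were used, with no versions and no annotation given. The table names wells by plate, and the libraries of a plate are pooled in it. 1536 wells of plates that match no label were not used. The estimate has a ceiling, which Ins2 reached in 15 insulin cells and Ins1 in 1.

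Wells were chosen by the thresholds given above, summed per experiment and group (at least 10 cells) and tested in edgeR 4.0.16 (R 4.3.3) with TMM scaling, edgeR's filter on low counts, the experiment as a block, a quasi-likelihood test and Benjamini-Hochberg adjustment over all tested genes. The 8 gate genes were left out of sums and library totals. The members, the gene lists and the tests were chosen with earlier results of these data known. The genes named were, in each direction, the 12 with the largest log2 difference among those called with the same sign in every experiment, with a mean of at least 20 CPM in the higher group and no clone or predicted name, together with a set of anchor genes and up to 4 members of each list. Other list members are named to show a count, and such names were chosen after their values were seen. A few genes of these lists are not reported here, and they remain in the counts. The experiment numbers come from the sample titles. Fev and insulin sums of one experiment deviated together, with correlations of 0.494 in EP10, 0.384 in EP12 and 0.294 in EP14.

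Alternatives were RLE size factors, no filter, DESeq2 1.42.0, no block, each experiment left out, MIP-GFP plates only, cells thinned to 2000 transcripts, at least 5000 transcripts, wells over 5 times their plate's median left out, the wells the authors kept in a smaller deposited table, gate genes kept in the totals, and other gates. The granule threshold, the minimum of 5 cells and the split at fewer than 2 Fev transcripts were added after the data had been seen. The fit was tested on simulated data. No doublet caller was run, and 0 cells of either group exceeded 5 times the plate median.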

Additional observations from a re-analysis of the deposited data

Results flagged for a closer look

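Beta-s, an adult beta globin gene of erythroid cells, went one way in EP12 and the opposite way in the other experiments. Its log2 difference was −1.65 in EP12, with 3.99 CPM in Fev cells, against 14.52 CPM in insulin cells. It was 2.30 in EP14, with 757 CPM in Fev cells, against 153 CPM in insulin cells, and 1.03 in EP10, with 99.6 CPM in Fev cells, against 48.5 CPM in insulin cells. The difference between experiments was not tested, and each experiment gave 1 sum per group. In EP14, 1 well held 1597 of the 1908 transcripts in Fev cells (83.7%), and with the granule threshold the log2 difference was −1.52 in EP12, −0.71 in EP14, with 93.6 CPM in Fev cells, against 154 CPM in insulin cells, and −1.21 in EP10.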

How the results depend on the processing

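The main fit called 3231 genes between Fev and insulin cells. The count was 1406 by DESeq2, 1637 to 2870 with 1 experiment left out and 619 of 4715 tested with cells thinned to 2000 transcripts. Without the experiment as a block, 1424 of 10729 genes were called. Under the remaining settings the count stayed within 1.5 times that of the main fit, from 2499 with MIP-GFP plates only to 4589 with the Fev gate at 1 transcript. Leaving out any experiment gave 30 of 32 folding genes and 28 of 31 translocation genes lower, and thinning gave 26 of 31 and 23 of 31. Between insulin cells with and without Fev, the 18 calls became 1 by DESeq2, 0 without the replicate block, 0 of 2022 with thinned cells, 7 with the insulin gate at 2% and 5 with the granule threshold.

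Some log2 differences changed sign. With MIP-GFP plates only these were Beta-s (−1.28), Cpa1 (−0.26), Ctrb1 (−1.15), Hes1 (−0.84) and Pax6 (0.013). In the wells the authors kept, they were Beta-s (−1.17), Csf1r (−0.18), Ctrb1 (−0.066), Hes1 (−0.093) and Pax6 (0.13). With the granule threshold they were Beta-s (−0.91), Cpa1 (−0.43), Csf1r (−0.082), Ctrb1 (−0.86), H19 (−0.36), Hes1 (−0.84) and Pax6 (0.16). Pax6 also gave 0.080 with thinned cells and 0.080 with the Fev gate at 3 transcripts, where Beta-s gave −0.31. With the Fev gate at 1 transcript, Neurod1 gave −0.31, Rfx6 −0.39, Slc38a5 −0.13 and Ttr −0.26. Ttr gave −0.18 with the insulin gate at 0.5%, −0.0058 at 2% and −0.18 with at least 5 cells per sum. With an experiment left out, Ttr ranged from −0.048 (without EP10) to 0.081, Neurod1 from −0.058 (without EP12) to 0.25 and Rfx6 from −0.057 (without EP12) to 0.095. In insulin cells, Pnliprp1 gave −1.53 by DESeq2 and −0.44 with the insulin gate at 2%. The cause was not tested for any of these. Insulin cells with 0 Fev transcripts as the second group against Fev cells could not be fitted, since only EP10 had 10 cells in both groups. Leaving out an experiment was not run for the insulin cells with and without Fev, where 1 sum per group would remain.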
